A study of Mus musculus with 6 samples.

Results

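The genes described here are 8 members of the Ms4a cluster of mouse chromosome 19, Ms4a4a, Ms4a4b, Ms4a4c, Ms4a6b, Ms4a6c, Ms4a6d, Ms4a7 and Ms4a8a. They were chosen by name from the 34745 genes of the count table, leaving aside the mast cell gene Ms4a2, the progenitor gene Ms4a3 and the rest of the cluster. All 8 have a row in the table, and 6 of them passed the filter on low counts that left 12537 genes for the test. Ms4a4b and Ms4a4c did not pass it and are given by their counts.

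RNA of monocytic myeloid-derived suppressor cells (M-MDSCs) was sequenced in 3 libraries labelled mTOR-/- and 3 WT libraries of C57BL/6 mice, to compare cells without and with the kinase mTOR. The mTOR-/- cells came from Lyz-mTOR mice, in which Cre driven by the lysozyme gene acts on an mTOR flox/flox allele in myeloid cells, and the WT cells came from wild-type mice. The labels give bone marrow as the source, the design text calls the cells induced, and the methods describe bone marrow cultured with GM-CSF and IL-6 in both genotypes. The extraction notes describe MDSCs that were sorted and fresh, and the paper's methods also include cell sorting. The paper's discussion of the RNA sequencing calls the M-MDSCs of Lyz-mTOR mice induced. A sort can follow a culture, and the order of steps before the RNA, or what fresh refers to, is not stated. No control with Cre alone is named, and it is not stated whether each library is 1 mouse, so that p-values measure the spread between these libraries.

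The libraries held 12317507 to 12903191 counts in the mTOR-/- group and 14066578 to 14768126 in the WT group. A count of 3 in a library corresponds to between 0.203 and 0.244 CPM (counts scaled to a common library size), and counting error alone sets that limit. Mtor itself had 883, 983 and 908 counts in the libraries labelled mTOR-/- and 980, 875 and 929 in the WT libraries, and did not pass the test (log2 fold change 0.15, standard error (SE) 0.11, adjusted p = 0.442). Its count over the whole gene does not show the deletion, exons were not analysed here, and the groups are named as the labels name them. The paper states that the loss of mTOR was verified in MDSCs, in a supplementary figure that was not examined here. Among the markers of the M-MDSC gate, Ly6c2 was lower (log2 fold change -0.999, adjusted p = 0.0426) and Ly6g higher (log2 fold change 2.27, adjusted p = 0.0365) in the libraries labelled mTOR-/-, and Itgam (CD11b, listed under 2 gene IDs) and Ly6c1 passed no test. With 1 library left out at a time, Ly6c2 passed in 2 of 6 fits and Ly6g in 1, and 0 of the gate genes passed without mTOR-/- replicate 1, mTOR-/- replicate 2 or WT replicate 1. Ly6g is the marker that a gate on M-MDSCs leaves out. All 7 classical monocyte markers were detected and tested, while only 4 of 9 markers of Ly6C-low monocytes passed the filter and Cd300e was at 0 in every library.

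The MS4A genes encode small proteins that cross the cell membrane several times and sit beside other receptors, whose signalling they tune. The family is best known from Ms4a1, which encodes the B cell antigen CD20, and Ms4a2, the beta chain of the high-affinity IgE receptor of mast cells. The members treated here are known mainly from monocytes and macrophages (Ms4a4a, Ms4a6c, Ms4a6d, Ms4a7, Ms4a8a) and from T cells (Ms4a4b, Ms4a6b), and Ms4a4c is known as an interferon-induced gene. In macrophages MS4A4A associates with the beta-glucan receptor Dectin-1, the product of Clec7a, and MS4A8A is known from alternatively activated and tumor-associated macrophages.

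Several members are close copies of each other, which bears on how reads are divided among them. In the coding sequences of GENCODE M21, Ms4a4b and Ms4a4c were 91.7% identical over 678 aligned bases, with an unbroken shared run of 127 bases. Ms4a6b was 86.4% identical with Ms4a6c and 81.8% with Ms4a6d, and their longest shared runs were 55 and 81 bases. Over whole transcripts, 1.66% of the distinct 100-base words of Ms4a4c and 0.47% of those of Ms4a4b also occurred in another Ms4a gene. The share was 0.51% in Ms4a6c, with Prdm11 and not with an Ms4a gene, and 0 in Ms4a4a, Ms4a6b, Ms4a6d, Ms4a7 and Ms4a8a. The promoters of the pairs were alike too: 250 bases upstream of the RefSeq starts, Ms4a6c and Ms4a6b were 85.1% identical over 175 aligned bases, and Ms4a4c and Ms4a4b 78.9% over 232.

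The promoters printed here (RefSeq, GRCm38.p6, each 250 bases upstream of a start and read 5′ to 3′) are those of the 3 members whose groups did not overlap, Ms4a8a, Ms4a7 and Ms4a6c, and of the pair of close copies Ms4a4b and Ms4a4c, which were barely detected. Capitals mark matches on either strand to TTNNGNAA, letters bound by C/EBP factors, and GAGGAA, letters bound by the ETS factor PU.1, both of which are known regulators of myeloid genes.
Ms4a8a, chr19:11081104-11081353, reverse strand: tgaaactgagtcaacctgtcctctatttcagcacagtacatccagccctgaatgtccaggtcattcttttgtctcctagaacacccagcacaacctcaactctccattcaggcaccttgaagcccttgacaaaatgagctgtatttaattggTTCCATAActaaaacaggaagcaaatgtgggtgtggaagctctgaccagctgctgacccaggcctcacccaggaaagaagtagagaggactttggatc
Ms4a7, chr19:11336147-11336396, reverse strand: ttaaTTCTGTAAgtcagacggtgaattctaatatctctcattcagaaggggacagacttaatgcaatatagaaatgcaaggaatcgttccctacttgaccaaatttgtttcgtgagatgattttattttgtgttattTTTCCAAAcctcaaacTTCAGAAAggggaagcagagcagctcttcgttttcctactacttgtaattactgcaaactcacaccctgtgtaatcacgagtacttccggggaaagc
Ms4a6c, chr19:11469118-11469367, forward strand: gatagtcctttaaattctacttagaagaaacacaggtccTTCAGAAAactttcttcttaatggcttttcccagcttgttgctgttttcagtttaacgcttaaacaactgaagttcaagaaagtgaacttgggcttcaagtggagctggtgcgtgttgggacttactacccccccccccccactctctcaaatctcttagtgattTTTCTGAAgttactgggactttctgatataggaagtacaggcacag
Ms4a4b, chr19:11443308-11443557, forward strand: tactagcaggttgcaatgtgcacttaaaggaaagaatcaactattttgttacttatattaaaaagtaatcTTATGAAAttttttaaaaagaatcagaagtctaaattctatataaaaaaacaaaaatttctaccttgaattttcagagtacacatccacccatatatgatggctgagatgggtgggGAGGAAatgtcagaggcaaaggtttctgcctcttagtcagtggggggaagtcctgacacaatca
Ms4a4c, chr19:11407411-11407660, forward strand: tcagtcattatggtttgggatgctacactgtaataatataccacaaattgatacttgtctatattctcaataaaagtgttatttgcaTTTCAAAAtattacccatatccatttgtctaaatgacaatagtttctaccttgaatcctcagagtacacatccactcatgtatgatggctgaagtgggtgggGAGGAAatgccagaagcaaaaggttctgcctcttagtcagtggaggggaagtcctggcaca

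The table held 8 windows for 7 members, including a second start of Ms4a7, and none was used for Ms4a6d. TTNNGNAA was found in all 8 windows, and in 36.8% of the 32851 windows of the table. The share of A and T was 52.8% to 69.6% in these 8 windows, against a median of 47.6% in the table. GAGGAA was found in 2 of the 8 windows, those of Ms4a4b and Ms4a4c at 64 and 61 bases before the start, and in 23.3% of all windows. The interferon response letters, GAAA followed by any 2 bases and GAAA, were in none of the 8 windows and in 3.0% of all, and the motifs do not overlap each other in the printed sequences. A match to these letters is a description and not a binding site.

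None of the members passed the test for a difference between the groups, although 5 of the 6 tested were lower in the libraries labelled mTOR-/-. The 2 furthest from 0 among the lower were Ms4a8a and Ms4a7, each lower in every library labelled mTOR-/- than in any WT library. With edgeR's quasi-likelihood test, 0 of 6 members had an adjusted p under 0.05 with a fold of at least 2, where 1.69% of all tested genes did, and 0 had an adjusted p under 0.05 at any fold, where 4.04% did, 2.18% higher and 1.87% lower. At an unadjusted p under 0.05, 2 of the 6 members (Ms4a7 and Ms4a8a) were lower, against 9.52% of all tested genes. In 3 of the 6 (Ms4a6c, Ms4a7 and Ms4a8a) the groups did not overlap and the libraries labelled mTOR-/- were the lower, against 13.9% of all tested genes. The median log2 fold change of the 6 was -0.75, and that of all tested genes 0.0049.

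The call on Ms4a8a and Ms4a7 depended on the tool. DESeq2's Wald test on the same genes gave Ms4a8a an adjusted p of 0.0048 and Ms4a7 one of 0.0173, so that 1 member (Ms4a8a) passed with a fold of at least 2, where 2.85% of genes did, and 2 passed at any fold, where 9.12% did. limma's voom method, added after the values had been seen, gave 0 members with an adjusted p under 0.05, where 4.06% of genes had one. Without a filter on low counts, edgeR called 1 of 8 members, again Ms4a8a (adjusted p = 0.0347), where 1.58% of the 17309 genes then tested were called.

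Ms4a8a (ENSMUSG00000024730, chr19:11067471-11081102 of GRCm38, reverse strand) is the member known from alternatively activated macrophages. It had 12, 20 and 9 counts in the libraries labelled mTOR-/- and 35, 107 and 56 in the WT libraries. Scaled by library size, these were 0.978, 1.54 and 0.688 CPM in the libraries labelled mTOR-/- and 2.49, 7.31 and 3.99 CPM in the WT libraries. The groups did not overlap, and WT replicate 2 stood above the other 2 WT libraries. The mean was 1.07 ± 0.435 CPM (SD, n = 3) in the libraries labelled mTOR-/- and 4.60 ± 2.47 CPM (SD, n = 3) in WT, a fitted level 4.27-fold lower. Its log2 fold change was -2.09 (SE 0.54, 95% confidence interval -3.30 to -0.89, adjusted p = 0.0634, edgeR). Without WT replicate 2 the log2 fold change was -1.59 (adjusted p = 0.241).

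Ms4a7 (ENSMUSG00000024672, chr19:11321039-11336146, reverse strand), a gene of mature macrophages and of macrophages at the borders of the brain, had 78, 56 and 76 counts in the libraries labelled mTOR-/- and 129, 160 and 156 in WT. In CPM these were 6.36, 4.32 and 5.81 in the libraries labelled mTOR-/- against 9.17, 10.9 and 11.1 in WT. The groups lay apart, and the libraries within each were close to each other. The mean was 5.50 ± 1.05 CPM (SD, n = 3) in the libraries labelled mTOR-/- and 10.4 ± 1.07 CPM (SD, n = 3) in WT, and the fitted level was 1.89-fold lower. The log2 fold change of Ms4a7 was -0.92 (SE 0.24, 95% confidence interval -1.45 to -0.39, adjusted p = 0.0656, edgeR), just short of a fold of 2.

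Ms4a6c (ENSMUSG00000079419, chr19:11469366-11482192, forward strand) is known from classical monocytes. It had 38, 36 and 31 counts in the libraries labelled mTOR-/- and 53, 72 and 56 in WT. In CPM the values were 3.10, 2.78 and 2.37 in the libraries labelled mTOR-/- and 3.77, 4.92 and 3.99 in WT. The groups did not overlap, but the gap between them was smaller than the range within WT. Its log2 fold change was -0.62 (SE 0.34, 95% confidence interval -1.38 to 0.15, adjusted p = 0.331, edgeR). The antisense gene BE692007 shares 1088 exon bases with Ms4a6c and had 1 to 8 counts in every library, and since the strand setting of the counting is not stated, reads of the 2 genes cannot be told apart.

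Ms4a6d (ENSMUSG00000024679, chr19:11586604-11604849, reverse strand), a macrophage gene whose product acts with VSIG4 on the NLRP3 inflammasome, had 342, 237 and 299 counts in the libraries labelled mTOR-/- and 274, 482 and 413 in WT. In CPM these were 27.9, 18.3 and 22.9 in the libraries labelled mTOR-/- against 19.5, 32.9 and 29.4 in WT. The groups overlapped, with WT replicate 1 among the lower libraries. The log2 fold change of Ms4a6d was -0.25 (SE 0.23, 95% confidence interval -0.75 to 0.26, adjusted p = 0.568, edgeR), an interval that allows a change of either sign but none past a fold of 2. Vsig4 was at 0 in every library.

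Ms4a4a (ENSMUSG00000101389, chr19:11375523-11392790, forward strand), the Dectin-1 partner, was the only tested member with a higher mean in the libraries labelled mTOR-/-. It had 50, 56 and 13 counts there and 9, 30 and 33 in WT. The CPM values were 4.08, 4.32 and 0.994 in the libraries labelled mTOR-/- and 0.640, 2.05 and 2.35 in WT. The groups overlapped, because mTOR-/- replicate 3 lay below 2 of the WT libraries and WT replicate 1 was lower still. The log2 fold change was 0.89 (SE 0.66, 95% confidence interval -0.59 to 2.37, adjusted p = 0.469, edgeR). The log2 fold change of Ms4a4a was 1.31 (adjusted p = 0.238) without mTOR-/- replicate 3 and 0.50 (adjusted p = 0.758) without WT replicate 1.

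The members known from T cells and the interferon-induced member had few counts, at most 12 in any library. Ms4a6b (ENSMUSG00000024677, chr19:11516512-11531256, forward strand) had 0, 6 and 10 counts in the libraries labelled mTOR-/- and 12, 10 and 11 in WT, 0 to 0.765 CPM against 0.683 to 0.853 CPM. The groups overlapped, and the log2 fold change was -0.89 with a wide interval (SE 0.89, 95% confidence interval -2.89 to 1.12, adjusted p = 0.606, edgeR). Ms4a4b (ENSMUSG00000056290, chr19:11443553-11463549, forward strand), whose product binds GITR, a costimulatory receptor of T cells, had 9, 9 and 0 counts in the libraries labelled mTOR-/- and 0, 4 and 9 in WT. Ms4a4c (ENSMUSG00000024675, chr19:11404770-11427246, forward strand) had 5 counts in mTOR-/- replicate 1 and 0 in the other 5 libraries. These counts do not show a difference at this depth. The T cell markers Cd3e, Cd5 and Trbc2 were at 0 in every library, and the summed level of the 11 T cell markers was 58.8 to 69.3 CPM in the libraries labelled mTOR-/- and 91.4 to 115 CPM in WT, most of it from Il7r.

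**Figure D1:**
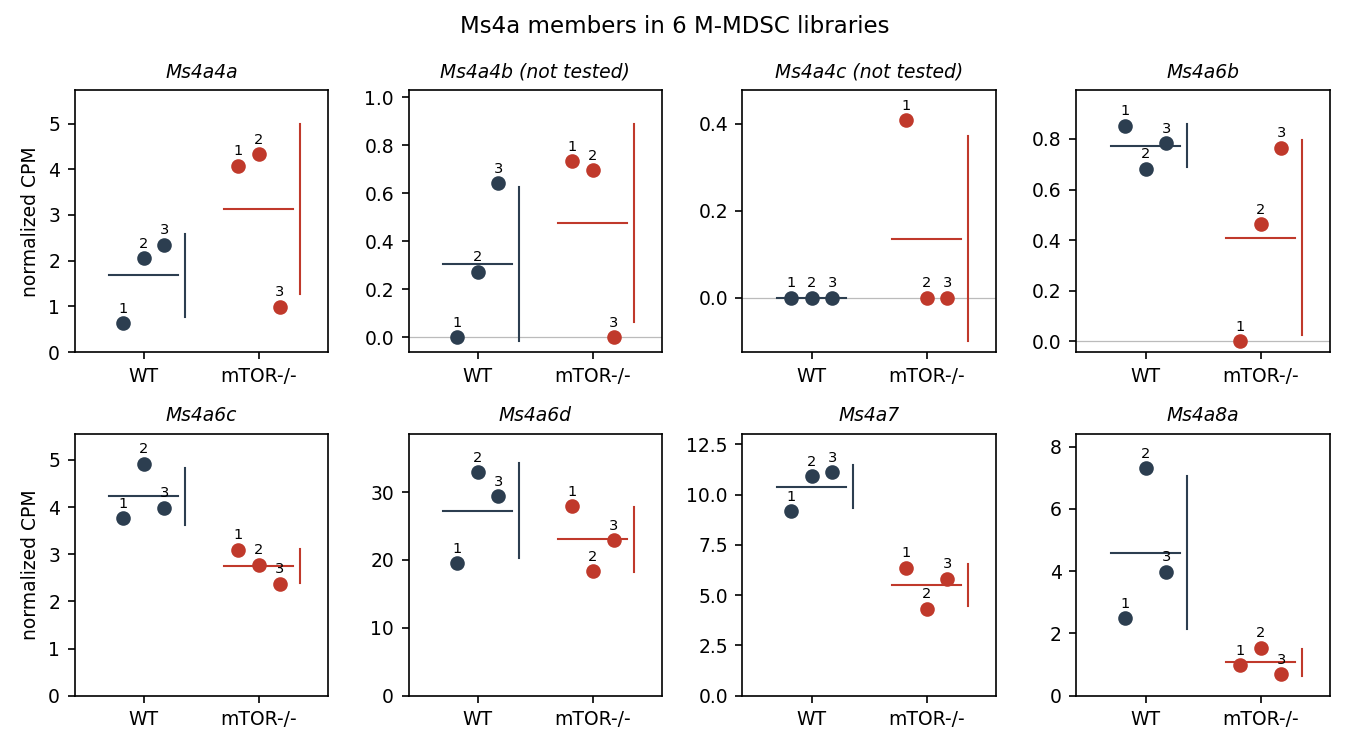
Normalized CPM of each member in the 3 WT and 3 mTOR-/- libraries, each panel on its own linear axis. Points are libraries with their replicate numbers, horizontal lines are group means and vertical lines ± 1 SD, and the groups lie apart in Ms4a6c, Ms4a7 and Ms4a8a.

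**Figure D2:**
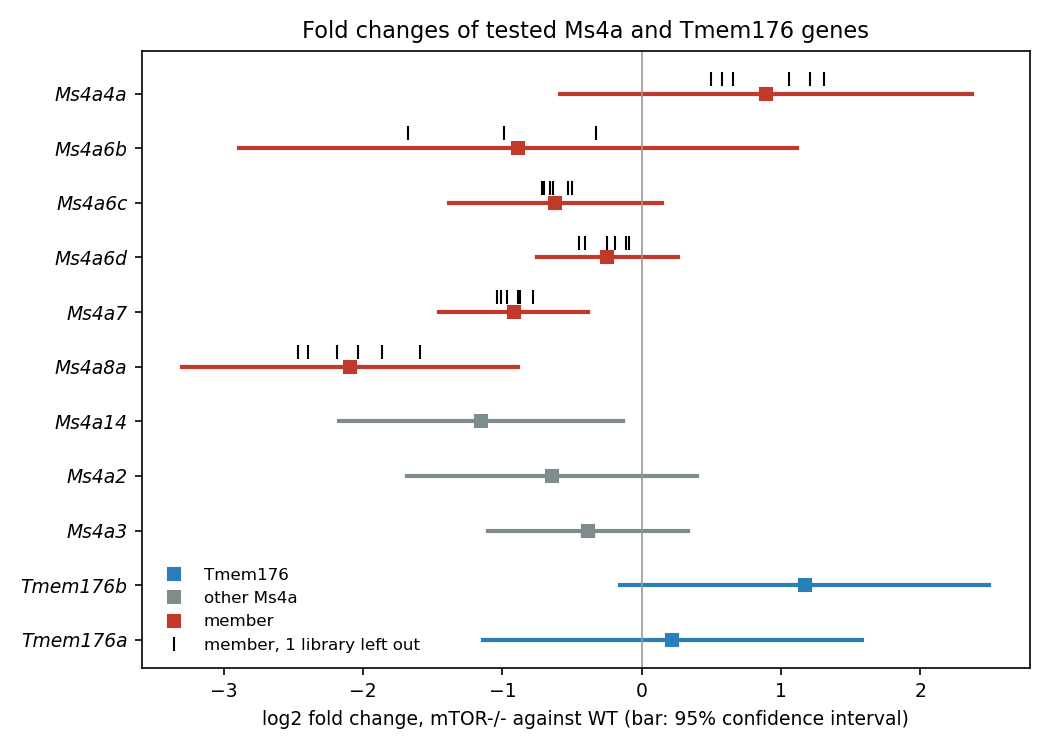
Log2 fold changes, libraries labelled mTOR-/- against WT, of the 6 tested members, of Ms4a14, Ms4a2 and Ms4a3 and of the Tmem176 genes, with bars for the 95% confidence interval. Ticks above a member show its value with 1 library left out. The intervals of Ms4a7, Ms4a8a and Ms4a14 lie below 0, and no gene shown had an adjusted p under 0.05.

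Levels of different genes were compared by FPKM, the authors' count per kilobase of gene length, scaled to library size. Ms4a6d led the members with 7.95 to 14.1 FPKM over the 6 libraries, above every library of the next member, and took 49.3% to 72.6% of the summed FPKM of the 8. It stood at the 67th percentile of the mean FPKM of tested genes. Next came Ms4a4a with a mean of 2.87 FPKM, Ms4a6c with 1.5, Ms4a8a with 1.47 and Ms4a7 with 1.43, whose libraries overlapped from neighbour to neighbour. Ms4a6b, Ms4a4b and Ms4a4c lay far below, at means of 0.0719, 0.0568 and 0.0293 FPKM, and did not differ beyond their spread.

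By group means, the order within the groups was not the same. In both groups the libraries of neighbours in ranks 2 to 5 overlapped. Ms4a8a held rank 5 in the libraries labelled mTOR-/-, with 0.561 ± 0.229 FPKM (SD, n = 3), and rank 2 in WT, with 2.37 ± 1.27 FPKM (SD, n = 3). Its share of the summed FPKM of the 8 members was 2.53% to 5.03% in the libraries labelled mTOR-/- and 9.38% to 15.5% in WT. Ms4a4a held rank 2 in the libraries labelled mTOR-/- and rank 3 in WT, at 3.76 ± 2.22 and 1.99 ± 1.07 FPKM (SD, n = 3). Except in Ms4a4b, the lengths behind these FPKM equal all distinct exons added up, with overlapping exons counted more than once. In Ms4a4b, whose deposited span differs from GENCODE M21, the implied length was 6845 bases against a sum of 10234. With merged exons of GENCODE M21, 5 of the 8 members kept their rank over all libraries. Ms4a7 was then in rank 3, Ms4a6c in rank 4 and Ms4a8a in rank 5.

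**Figure D3:**
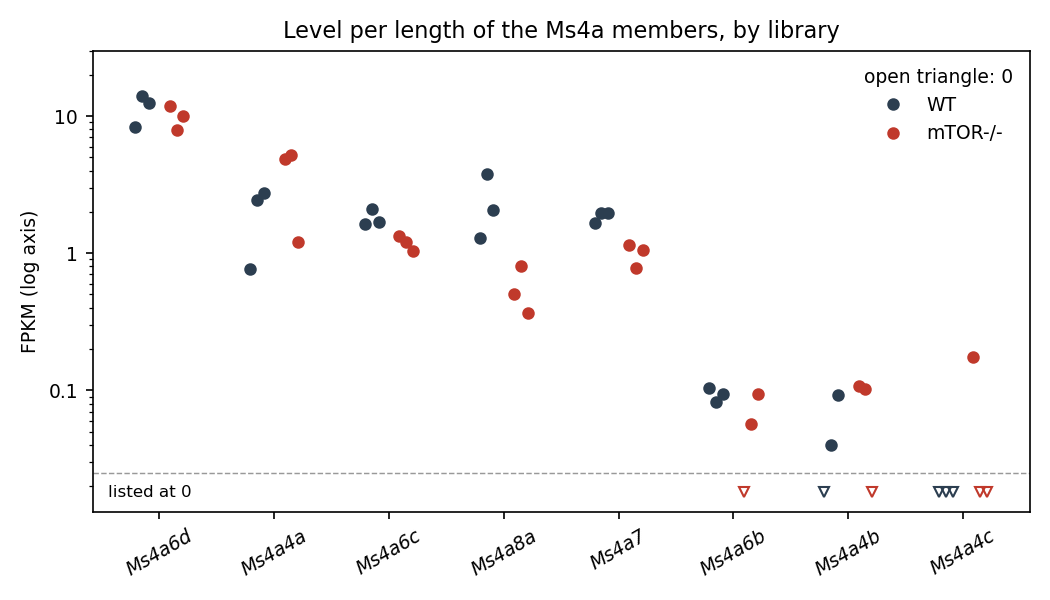
FPKM of the 8 members in each library on a log axis, ordered by their mean over the 6 libraries, with open triangles below the dashed line for libraries listed at 0. Ms4a6d stood apart at 7.95 to 14.1 FPKM, and Ms4a6b, Ms4a4b and Ms4a4c lay below the other members.

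Of the 11 other Ms4a genes in the table, 7 (Ms4a4d, Ms4a5, Ms4a10, Ms4a12, Ms4a13, Ms4a15 and Ms4a18) were at 0 in every library. The B cell gene Ms4a1 had 0, 4 and 8 counts in the libraries labelled mTOR-/- and 0, 6 and 0 in WT, too few for the test. Of the 3 that were tested, 0 had an adjusted p under 0.05 and all were lower in the libraries labelled mTOR-/-, with a median log2 fold change of -0.65. Ms4a14, the neighbour of Ms4a7 on the reverse strand, had 31, 33 and 14 counts in the libraries labelled mTOR-/- and 48, 92 and 56 in WT. These groups did not overlap, and its log2 fold change was -1.15 (SE 0.45, adjusted p = 0.187, edgeR).

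Ms4a2 had 89, 52 and 188 counts in the libraries labelled mTOR-/- and 100, 209 and 264 in WT, which overlapped (log2 fold change -0.65, adjusted p = 0.457, edgeR). Ms4a3, the progenitor gene, had 116, 162 and 244 counts against 249, 163 and 341 and also overlapped (log2 fold change -0.38, adjusted p = 0.523, edgeR). Beside these, 4 of the 8 tested mast cell and basophil markers were lower with an adjusted p under 0.05 (Cpa3, Kit, Mcpt8 and Gata2) and 0 higher, and Cma1 was at 0. Cpa3 and Kit also passed with any 1 library left out, Gata2 not without WT replicate 1 or 2, and Mcpt8 not without mTOR-/- replicate 1 or 3 or WT replicate 1 or 3. The summed level of that list was 442 to 516 CPM in the libraries labelled mTOR-/- and 1283 to 1368 CPM in WT, and its part in the levels of the Ms4a genes was not tested. In bulk RNA, fewer cells of a type and less RNA per cell cannot be told apart.

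Within 1 Mb of the outermost members lay 88 other genes on chromosome 19, the other Ms4a genes included, of which 31 were tested. Among these 31, 1 gene passed an adjusted p of 0.05, where 4.04% of all tested genes did. The gene was Slc15a3, a transporter of histidine and small peptides in endolysosomes. It had 455, 460 and 425 counts in the libraries labelled mTOR-/- and 155, 287 and 296 in WT, and was higher (log2 fold change 1.02, SE 0.23, adjusted p = 0.0399, edgeR). The groups of Slc15a3 did not overlap, but it no longer passed after the removal of any 1 library (adjusted p 0.0578 to 0.104). The median log2 fold change of the 31 was -0.017, and the members themselves span 537 kb.

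**Figure D4:**
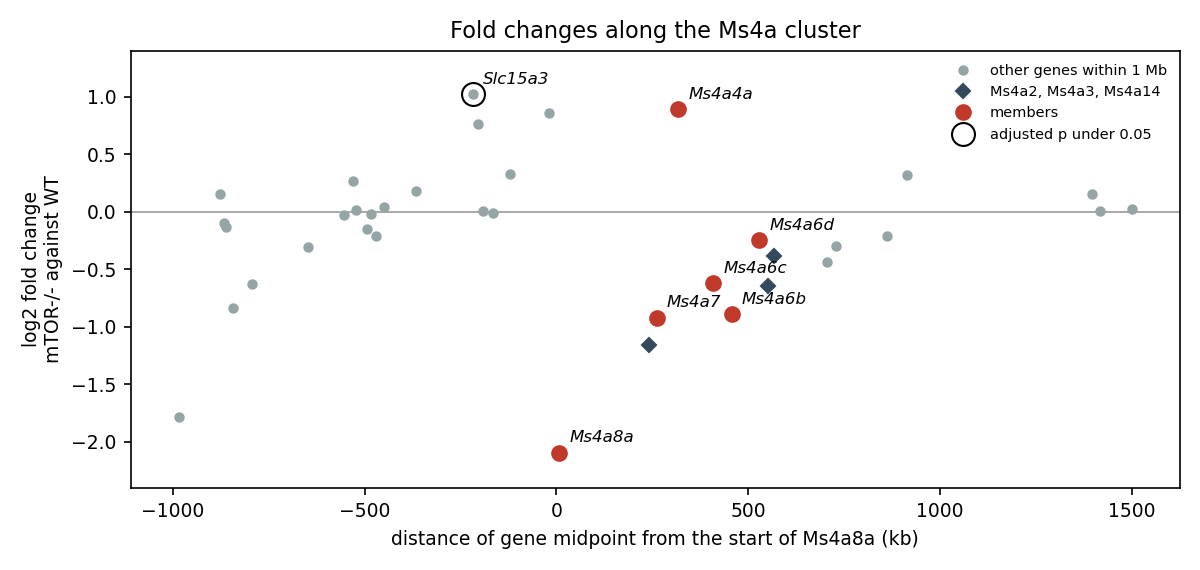
Log2 fold changes of the tested genes within 1 Mb of the outermost members against the distance of each gene's midpoint from the start of Ms4a8a. Of the members, Ms4a4a lies above 0 and the other 5 tested below, and the circle marks Slc15a3 at 1.02.

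The genes that act with MS4A proteins held 2 calls, and both were lost in most fits with 1 library removed. Of 10 tested partners and signalling genes, 1 was higher and 1 lower with an adjusted p under 0.05, and the median log2 fold change was 0.021. Clec7a, which encodes Dectin-1, was at 90.6, 57.4 and 67.5 CPM in the libraries labelled mTOR-/- and 118, 151 and 122 CPM in WT. The groups lay apart and Clec7a was lower (log2 fold change -0.86, SE 0.17, adjusted p = 0.0262, edgeR). After removal of any 1 library, Clec7a passed only in the fit without mTOR-/- replicate 1 (adjusted p 0.0162 to 0.0987). Nlrp3, the sensor of the inflammasome, was at 197, 175 and 185 CPM in the libraries labelled mTOR-/- and 103, 137 and 136 CPM in WT. Nlrp3 was higher without overlap (log2 fold change 0.57, SE 0.12, adjusted p = 0.0367, edgeR), and passed in 0 of 6 such fits (adjusted p 0.0548 to 0.112). The kinase Syk (log2 fold change 0.05) and the adaptors Tyrobp (0.01) and Fcer1g (-0.18) had adjusted p-values of 0.795, 0.974 and 0.434. Card9 was at 272, 243 and 408 CPM in the libraries labelled mTOR-/- and 196, 201 and 174 CPM in WT. It was higher without overlap but did not pass (log2 fold change 0.69, SE 0.18, adjusted p = 0.0634, edgeR). Adam10 was lower without overlap and did not pass either (log2 fold change -0.25, adjusted p = 0.314, edgeR). Whatever the p, 6 of the 10 had a log2 fold change above 0 and 4 below.

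The related membrane genes Tmem176a and Tmem176b of chromosome 6 passed no test. Tmem176b had 72, 79 and 67 counts in the libraries labelled mTOR-/- and 7, 39 and 62 in WT. The groups did not overlap, but WT replicate 3 came close to the other group, and the log2 fold change of Tmem176b was 1.17 (SE 0.59, adjusted p = 0.291, edgeR).

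Genes of alternative activation, the state from which Ms4a4a and Ms4a8a are known, were higher or not called. Of 11 tested, 4 were higher with an adjusted p under 0.05 and 0 lower, with a median log2 fold change of 0.50. They were the lectin Clec10a (log2 fold change 1.48, adjusted p = 0.00724), Retnla (1.37, adjusted p = 0.0233), the scavenger receptor Stab1 (0.77, adjusted p = 0.0397) and the chitinase-like Chil3 (0.50, adjusted p = 0.0298). Clec10a also passed whichever library was removed (adjusted p 0.00562 to 0.0432). It was the 1 gene of this list to pass without mTOR-/- replicate 1 and without WT replicate 1, 2 or 3. Mrc1, the mannose receptor, was at 5.30, 1.78 and 1.22 CPM in the libraries labelled mTOR-/- and 2.20, 5.81 and 6.91 CPM in WT, with overlap. Arg1 overlapped as well (log2 fold change 0.36, adjusted p = 0.388, edgeR). Mgl2 was at 164, 142 and 201 CPM in the libraries labelled mTOR-/- and 46.1, 100 and 110 CPM in WT. It was higher without overlap but did not pass (log2 fold change 0.98, SE 0.28, adjusted p = 0.0886, edgeR). Whatever the p, 7 of the 11 had a log2 fold change above 0 and 4 below.

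Of 10 tested interferon-stimulated genes, 2 were higher with an adjusted p under 0.05, Mx1 (log2 fold change 1.62, adjusted p = 0.00642) and the chemokine Cxcl10 (2.57, adjusted p = 0.0243), and 0 were lower. Mx1 passed whichever library was removed and Cxcl10 in 2 of 6 fits, not without mTOR-/- replicate 3 or any 1 WT library. The median log2 fold change of the list was 0.033, and Isg15 was at 1.39, 2.70 and 2.83 CPM in the libraries labelled mTOR-/- against 4.19, 3.69 and 4.06 CPM in WT.

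Cell type markers were counted in the same way, and with 1 library left out only Vcan, Fn1 and Ltf among those named next passed in all 6 fits. Of 7 classical monocyte markers, 4 were higher with an adjusted p under 0.05 (F13a1, Vcan, Fn1 and Chil3) and 1 lower (Ly6c2). The number that passed was 2 without mTOR-/- replicate 1, WT replicate 1 or WT replicate 3, and 3 without mTOR-/- replicate 2 or WT replicate 2. Their summed level was 1978 to 2297 CPM in the libraries labelled mTOR-/- and 1182 to 1413 CPM in WT. Of 9 tested macrophage markers, 1 was higher, Csf1r (log2 fold change 0.50, adjusted p = 0.0136; not passed when any 1 WT library was left out), and 0 lower, and the summed level was 1047 to 1221 against 1136 to 1283 CPM. C1qa was at 0 to 8 counts. Of 4 tested markers of Ly6C-low monocytes 1 was higher, Eno3 (log2 fold change 0.92, adjusted p = 0.0375, passed in 0 of the 6 fits), with sums of 248 to 288 against 292 to 313 CPM. Of 5 tested dendritic cell markers 1 was higher, Ccr7 (log2 fold change 1.26, adjusted p = 0.0314, passed in 1 of the 6 fits, that without WT replicate 1), with sums of 200 to 270 against 70.7 to 155 CPM. Of 9 neutrophil markers 1 was higher (Ly6g) and 2 lower (Ngp and Ltf), of which 1 passed without mTOR-/- replicate 1, mTOR-/- replicate 2 or WT replicate 1. The sums were 1778 to 2166 against 1580 to 1907 CPM, most of it from Mmp8 alone (1395 to 1798 against 1078 to 1321 CPM). Whatever the p, 4 of the 9 had a log2 fold change above 0 and 5 below. Of 2 tested T cell markers Il7r was lower (log2 fold change -0.74, adjusted p = 0.0136, not passed without WT replicate 2 or 3), and of 1 NK cell and 2 B cell markers tested 0 passed in either direction. The part of these markers in the levels of the members was not tested.

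The genes most like the members were found from the centred log2 CPM of the 6 libraries, by the root mean square difference from the mean profile of the 6 tested members. They were Tnfsf8 (0.127), Esco1 (0.146), Lancl2 (0.150), Naif1 (0.150) and Cd200r3 (0.153), each on the log2 scale. The members themselves differed from their mean profile by 0.178 (Ms4a6c), 0.310 (Ms4a7), 0.331 (Ms4a6d), 0.698 (Ms4a8a), 0.868 (Ms4a6b) and 0.979 (Ms4a4a). Tnfsf8, a ligand of the tumor necrosis factor family, was at 15.2, 15.8 and 14.9 CPM in the libraries labelled mTOR-/- and 19.5, 25.3 and 23.6 CPM in WT. Like the mean profile of the members, it was highest in WT replicate 2, a likeness that follows from how it was chosen.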

How the data were processed

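M-MDSC RNA was sequenced in 3 libraries labelled mTOR-/- and 3 WT libraries as 150-bp paired-end reads. The authors deposited whole-number read counts per gene, made with Bowtie2 on mm10 and HTSeq per the methods, while the submitters' processing notes list HISAT2 2.0.4, StringTie 1.3.0, GRCm38.p4 and mm9 without a role. Annotation release and strand setting are not given in the sources used here. The authors also deposited FPKM, whose implied gene lengths count overlapping exons more than once in the members other than Ms4a4b. The files hold 36 columns of per-sample values, of which 24 repeat these and were not used, nor was the authors' own comparison (group means, fold changes, p and q values). For 7 of the 8 members the deposited span equalled that of GENCODE M21 (GRCm38).

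Counts were tested with edgeR 4.0.16 (R 4.3.3): filterByExpr (minimum count 10, minimum total 15), TMM factors between 0.986 and 1.01, the quasi-likelihood F test and Benjamini-Hochberg adjustment over all 12537 genes. The call rule was the study's (adjusted p under 0.05 and 2-fold), and every adjusted p is from this fit unless another tool is named. CPM used TMM-scaled library sizes, log2 CPM a prior count of 2, and the biological coefficient of variation was 19%. An exact permutation test of 3 against 3 libraries cannot go below p = 0.1. The script was tested on simulated data. Alternatives were DESeq2 1.42.0, limma 3.58.1, other normalizations and filters, libraries left out and the replicate number as a block. The authors' FPKM were also tested with limma at pseudocounts of 0.1 and 1. Members and gene lists were chosen with earlier results of these data known. Named genes are the members, all Ms4a genes, list genes that passed, were at 0 or define a cell type, Mtor and the 5 genes most like the members. Others (Slc15a3, Mrc1, Arg1, Mgl2, Isg15, Syk, Tyrobp, Fcer1g, Card9, Adam10, Tmem176 genes and BE692007) were named after their values were seen. Protein sequences were not used here. 1 marker of the classical monocyte list is not reported here and is left out of its counts and sums.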

Additional observations from a re-analysis of the deposited data

How the results depend on the processing

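Every log2 fold change of a tested member kept its sign under all alternatives in which it could be fitted. The number of all genes called, 212 in the report, was 357 (220 higher, 137 lower) with DESeq2, 129 (74 higher) with limma on log2(FPKM + 1), 507 without the fold threshold, and 136 (73 higher) without mTOR-/- replicate 3 and WT replicate 1, an alternative chosen after seeing the data. With 1 library left out at a time it lay between 114 and 229 (61 to 132 higher, 51 to 97 lower), and it was 128, 114 and 120 without WT replicate 1, 2 and 3. No member was called in these 6 fits. DESeq2 called 1 member and gave 2 an adjusted p under 0.05, and edgeR with no filter called 1 and gave 1 such a p. The count of members higher in the libraries labelled mTOR-/-, 1 in the report, was 3 of 8 with no filter, since Ms4a4b and Ms4a4c then entered, and 0 of 3 with at least 10 counts in every library, where Ms4a4a, Ms4a6b and Ms4a8a were not fitted. The log2 fold change lay between -2.47 and -1.06 for Ms4a8a (adjusted p 0.0048 to 0.241), between -1.05 and -0.52 for Ms4a7 (0.0173 to 0.245) and between 0.50 and 1.31 for Ms4a4a (0.238 to 0.758). With merged exon lengths 5 of 8 members kept their rank by FPKM, and lengths from the file itself were not run because it gives none.

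The replicate numbers did not pair the libraries: deviations from the group means correlated at -0.0764, -0.0252 and -0.0608 between libraries of the same number. With the replicate block, a paired fit, 164 genes and 0 members were called. Of the list genes it lost Nlrp3, Retnla, Stab1, Chil3, Cxcl10, Eno3, Csf1r, Ngp, Mcpt8 and Slc15a3. Ms4a4a, Ms4a6b, Ms4a6c, Ms4a8a and the untested members rest on counts of 0 to 107 a library, so that fold changes fitted to them are imprecise.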

Other observations

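Ms4a4a and Ms4a4b were lowest in the same library of each group, mTOR-/- replicate 3 and WT replicate 1. Ms4a4a had 13 and 9 counts in these and 30 to 56 in the other 4, and Ms4a4b had 0 and 0 against 4 to 9. Flt3, from the dendritic cell list, was at 0 and 0.640 CPM in these libraries and at 1.98 to 3.49 CPM in the other 4. The other tested markers of that list were mixed. Zbtb46 was also lowest of its group in both libraries, Itgax and Ccr7 in WT replicate 1 only, and Dpp4 was highest of its group in both. Ms4a6c and Ms4a8a were also lowest in these libraries of each group, with 31 and 53 counts for Ms4a6c and 9 and 35 for Ms4a8a. Ms4a6d and Ms4a7 were lowest in WT replicate 1 too, with 274 and 129 counts, but in mTOR-/- replicate 2 of the other group, with 237 and 56 counts. Ms4a6b went against the pattern, lowest in mTOR-/- replicate 1 with 0 counts and in WT replicate 2 with 10, and highest in WT replicate 1 with 12. Fewer genes were detected in mTOR-/- replicate 3 (13889) than in any other library (14709 to 15120). WT replicate 1 was also lowest of its group in genes of other lists, such as Vcan (41.1 against 77.5 and 66.5 CPM) and Arg1 (107 against 219 and 184 CPM). In Ly6c2 it was not (182 against 116 and 226 CPM). The pattern among the Ms4a genes was noticed after the values had been seen, and neither it nor its relation to these library differences was tested.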
